A study of Mus musculus with 8 samples.

Results

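The secreted Wnt antagonists are extracellular proteins that keep Wnt ligands from signalling, and 9 of their genes were taken by symbol from the 50462 gene identifiers of the table. They comprise the secreted Frizzled-related proteins Sfrp1, Sfrp2, Sfrp4, Sfrp5 and Frzb, the Dickkopf family genes Dkk1, Dkk2 and Dkk3, and Wif1. All 9 were among the 18707 genes that received an adjusted p. RNA was sequenced from medial knee cartilage caps of male C57BL/6J mice of the genotype given as wild-type control, with 1 library per mouse and 4 mice per group. Naive mice (day 0) had no operation and were 11 weeks old. DMM mice had the ligament that tethers the left medial meniscus to the tibia cut at 11 weeks under isoflurane with buprenorphine, a procedure called destabilisation of the medial meniscus, and were sampled at day 42, aged 17 weeks. The comparison asks how expression in cartilage of a destabilised joint differed from that of an unoperated joint. No sham-operated or age-matched group was analysed here, so the operation and the older age of the DMM mice cannot be told apart.

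Wnt ligands bind Frizzled receptors together with the co-receptors Lrp5 and Lrp6, which in the canonical branch stabilises beta-catenin and lets it act with TCF/LEF factors on target genes. Secreted Frizzled-related proteins carry a Frizzled-like cysteine-rich domain and, like Wif1, bind Wnt ligands themselves. Dkk1 and Dkk2 instead bind Lrp5 and Lrp6, in a complex that can include Kremen proteins, whereas Dkk3 is a divergent family member with no settled receptor. Articular chondrocytes make several of these proteins, and Frzb was isolated from cartilage.

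Each library held between 12479400 and 16548000 estimated counts in all, with DMM 2 the lowest. Between 16770 and 19271 genes had 10 or more counts, with the fewest in naive 2. The label of cartilage was checked against 14 chondrocyte markers, of which 13 had a mean above 10 normalised counts and Matn1 did not. Their share of counts was 0.389% ± 0.0869 (SD, n = 4) in the naive and 0.992% ± 0.279 in the DMM group. The two-sided p of an exact permutation test was 0.0286, the smallest that 4 against 4 allows, and 0.0629 after Benjamini-Hochberg adjustment over 11 marker lists. RNA of other cells was present in every library. Neutrophil lineage markers took 1.15% ± 0.160 (SD, n = 4) of naive and 0.703% ± 0.228 of DMM counts (exact permutation p = 0.0286, adjusted 0.0629), and all 12 of them were called lower. Osteoblast and osteocyte markers took 1.09% ± 0.184 and 2.85% ± 0.279 (exact permutation p = 0.0286, adjusted 0.0629, n = 4), with 9 of 12 called higher and Col1a1 making up most of the sum. Erythroid markers took 1.57% ± 0.386 of naive and 0.844% ± 0.336 of DMM counts (SD, n = 4; exact permutation p = 0.0857, adjusted 0.135), with 11 of 12 called lower. Over all genes tested, 7.38% were called higher and 5.63% lower, by the rule given below. In bulk tissue, fewer cells of a type and less RNA per cell cannot be told apart.

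Of the 9 antagonists, 6 were higher in DMM cartilage, none was lower and 3 did not pass the test, where a call needed both an adjusted p no higher than 0.05 and at least a 1.5-fold change (DESeq2 Wald test, Benjamini-Hochberg adjustment over all genes tested). Across all 18707 genes, 7.38% were called higher and 5.63% lower. The 6 were Sfrp2, Dkk3, Sfrp4, Wif1, Frzb and Sfrp1. In 5 of them, all but Frzb, every DMM library lay above every naive library, an arrangement found in 11.5% of all genes tested. The median log2 fold change was 0.79 over the 9 antagonists and -0.01 over all genes tested. The count of 6 was the same under TMM factors and under scaling to the total count. It was 5 with edgeR, with limma-voom and without independent filtering, 4 with the replicate number as a block, and 1 against a null of 1.5-fold.

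**Figure D1:**
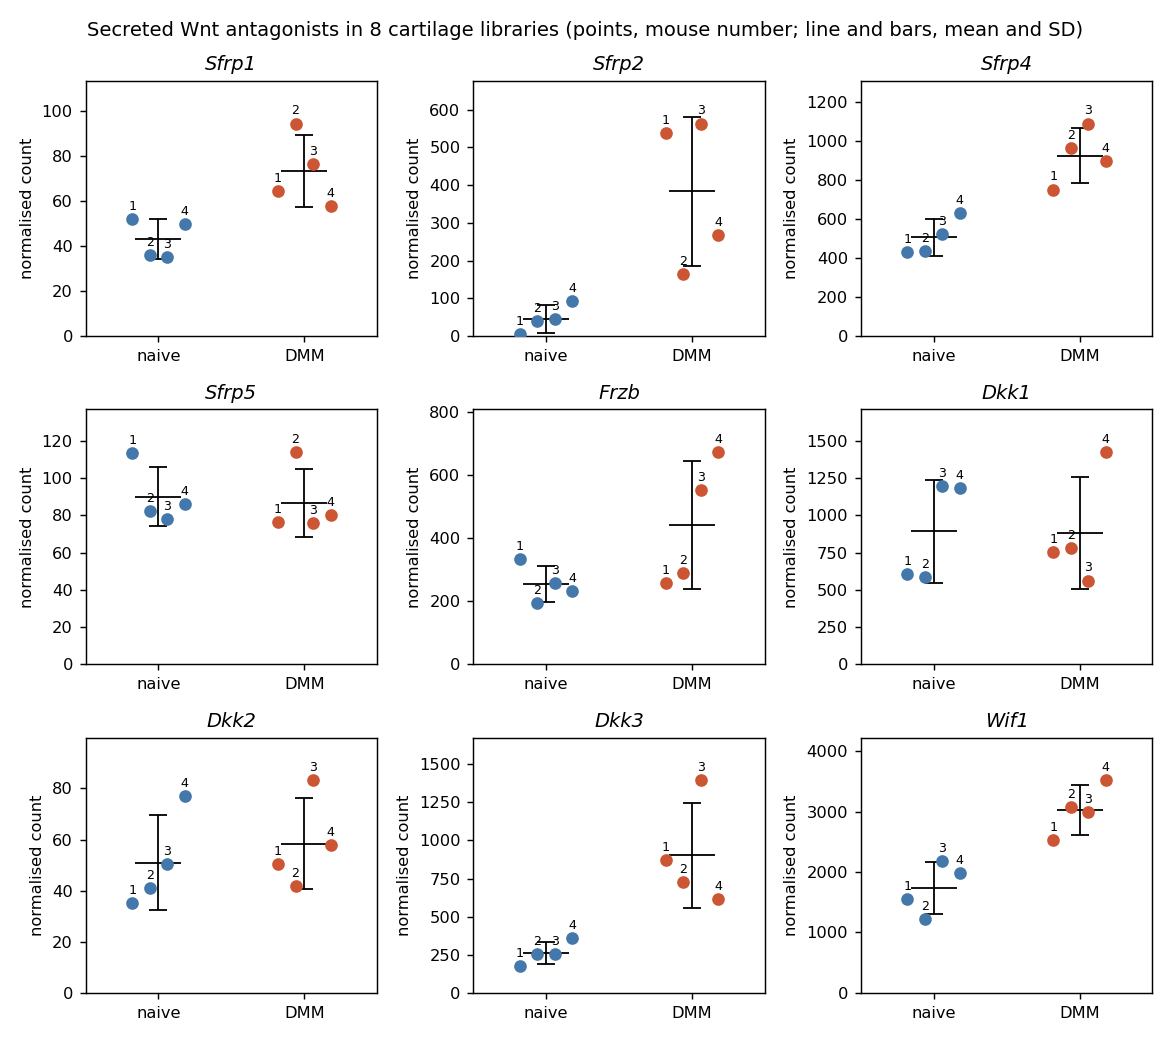
Normalised counts of the 9 antagonists in each of the 8 libraries, on a linear axis that differs between panels. Points are mice with their numbers, and lines and bars are the mean and SD of 4. The naive and DMM points are separate for Sfrp1, Sfrp2, Sfrp4, Dkk3 and Wif1 and overlap for Sfrp5, Frzb, Dkk1 and Dkk2.

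Sfrp2, whose product binds Wnt ligands, showed the largest change of the family. The gene (ENSMUSG00000027996) lies at chr3:83766321-83774316 on the plus strand of GRCm38. Normalised counts were 4.40, 38.6, 46.0 and 93.0 in the naive mice and 538.2, 163.4, 563.1 and 268.1 in the DMM mice. Every DMM library was above every naive library, and the values were spread widely in both groups, with naive 1 far under the other naive mice and DMM 1 and DMM 3 more than DMM 2 and DMM 4. The log2 fold change was 3.08 (SE 0.81, adjusted p = 0.0019), an 8.44-fold increase with a 95% interval of 2.79 to 25.5. It ranked 13 by fold among the 1380 genes called higher. Without naive 1, the log2 fold change was 2.70 (adjusted p = 0.00015), and without naive 4 it was 3.70. The gene overlaps exons of Gm26771 on the opposite strand, with which it shares 13.7% of its 31-base words, and the strand setting of the counting is not given in the sources used here. Gm26771 itself had at most 2.05 estimated counts in any library.

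The 250 bases before the RefSeq start of Sfrp2 are shown because this gene moved most. They span chr3:83766071-83766320 of GRCm38.p6 on the plus strand, with 63.6% G or C and 16 CpG dinucleotides, against medians of 52.4% and 6 over 32851 promoter windows of that length.
Sfrp2 promoter: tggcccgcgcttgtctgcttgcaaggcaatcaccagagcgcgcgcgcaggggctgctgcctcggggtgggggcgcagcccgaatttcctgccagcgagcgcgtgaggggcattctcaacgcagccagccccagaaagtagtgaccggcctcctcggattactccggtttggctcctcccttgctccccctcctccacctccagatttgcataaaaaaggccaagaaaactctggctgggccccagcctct
The window was searched on both strands for the TCF/LEF core CTTTGA, the TATA box TATAAA, the AP-1 site TGANTCA, the TEAD core GGAATG and the CCAAT box CCAAT, and none was in it. Those letters occurred in 13.8%, 12.4%, 6.75%, 12.6% and 33.8% of all windows. RefSeq windows were at hand for Sfrp2, Sfrp5, Frzb, Dkk1, Dkk2 and Wif1. The TCF/LEF core was found in the windows of Frzb and Dkk1, shown here with the core in capitals, each read 5′ to 3′ on the minus strand of the chromosome, the strand of the gene.
Frzb, 95 bases before the start, chr2:80447474-80447503: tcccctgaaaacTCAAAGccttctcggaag
Dkk1, 174 bases before the start, chr19:30549653-30549682: gaggggagagtgTCAAAGtcctccctgctt
Dkk1, 117 bases before the start, chr19:30549596-30549625: ctcctcccaaagCTTTGAaatcccatcccg
The core in Frzb and the first in Dkk1 are on the opposite strand to the gene, so they read TCAAAG. GENCODE places the starts of both genes farther upstream than RefSeq, so that the Frzb window and the last Dkk1 window lie within the GENCODE gene and the other Dkk1 window spans its start. Frzb was called higher and Dkk1 was not. The TATA box letters were found on the strand of the gene in Dkk1 (at -54 from the RefSeq start) and Dkk2 (at -32). In Wif1 they were on the opposite strand, at -232. The CCAAT box was found in the window of Dkk2, on the opposite strand. The window of Sfrp5 held none of the 5 motifs. These matches are letters in a window and were not tested as binding sites.

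Sfrp4, a Wnt-binding family member known for a role in bone and cortical thickness, rose in all DMM mice. The gene (ENSMUSG00000021319) lies at chr13:19623104-19632994 on the plus strand. Normalised counts were 430.0, 435.0, 520.1 and 631.6 in naive and 749.7, 960.0, 1087 and 896 in DMM libraries. The groups did not overlap, and the CV within groups was 18.7% and 15.2%. The log2 fold change was 0.87 (SE 0.16, adjusted p = 5.8e-06), or 1.83-fold (95% interval 1.47 to 2.29), and it was called in all 8 fits that left out a library.

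Sfrp1 had low counts and a change near the threshold. It lies at chr8:23411502-23449632 on the plus strand (ENSMUSG00000031548). Normalised counts were 51.9, 35.9, 35.3 and 49.9 in naive and 64.7, 94.6, 76.6 and 57.8 in DMM libraries. Each DMM value was above each naive value, although the lowest DMM library, DMM 4, was only slightly above naive 1. The log2 fold change was 0.75 (SE 0.26, adjusted p = 0.024), or 1.68-fold (95% interval 1.18 to 2.40). The call was lost without naive 2 (log2 fold change 0.68, adjusted p = 0.0897), naive 3 (0.66, 0.101), DMM 2 (0.61, 0.127) or DMM 3 (0.73, 0.0729).

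Frzb, also known as Sfrp3, was called higher, with DMM 3 and DMM 4 above the other 6 libraries. It lies at chr2:80411970-80447625 on the minus strand (ENSMUSG00000027004). Normalised counts were 332, 196, 258 and 234 in naive and 257, 288, 551 and 672 in DMM libraries. DMM 1 and DMM 2 were within the naive range, and the CV was 45.8% in DMM against 22.6% in naive mice. The log2 fold change was 0.79 (SE 0.29, adjusted p = 0.034), or 1.73-fold (95% interval 1.17 to 2.57). The call depended on the tool and on single libraries. The adjusted p was 0.0859 with edgeR's quasi-likelihood test and 0.15 with limma-voom, and the gene was not called without naive 2 (log2 fold change 0.69), naive 3 (0.80), naive 4 (0.75), DMM 3 (0.67) or DMM 4 (0.52).

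Sfrp5, the remaining family member, was not called. The gene (ENSMUSG00000018822) lies at chr19:42197971-42202252 on the minus strand. Normalised counts were 113, 82.5, 78.1 and 86.2 in naive and 76.3, 114, 75.7 and 80.3 in DMM libraries. The highest library of each group, naive 1 and DMM 2, reached nearly the same value, and the other libraries were close together. The DMM to naive ratio was 0.953 with a 95% interval of 0.704 to 1.29 (log2 fold change -0.07, SE 0.22, adjusted p = 0.88), and its sign turned under scaling to the total count. A rise of up to 1.29-fold lies within this interval.

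Wif1, Wnt inhibitory factor 1, binds Wnt ligands through its WIF domain and had the highest level per length of the 9 genes in both groups. It lies at chr10:121033960-121100650 on the plus strand (ENSMUSG00000020218). Normalised counts were 1550, 1220, 2187 and 1980 in naive and 2524, 3072, 2990 and 3514 in DMM libraries. All DMM mice were above all naive mice, and the CV was 25.0% in naive and 13.4% in DMM libraries. The log2 fold change was 0.80 (SE 0.18, adjusted p = 0.0002), or 1.74-fold (95% interval 1.36 to 2.23), and the call was kept in all 8 fits that left out a library.

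Among the Dickkopf genes, Dkk3 rose while Dkk1 and Dkk2 did not pass the test. Dkk3 (ENSMUSG00000030772) lies at chr7:112116017-112159057 on the minus strand. Its normalised counts were 175, 257, 257 and 357 in naive and 872, 730, 1394 and 614 in DMM libraries. The groups were far apart, with the lowest DMM library, DMM 4, well above the highest naive library, naive 4. The log2 fold change was 1.79 (SE 0.26, adjusted p = 2.0e-09), or 3.46-fold (95% interval 2.42 to 4.93). Dkk3 was the only antagonist that also passed a test against a change of 1.5-fold (adjusted p = 0.0026).

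Dkk1 blocks canonical signalling at Lrp5 and Lrp6 and had the second highest mean level per length in both groups. The gene (ENSMUSG00000024868) lies at chr19:30545863-30549665 on the minus strand. Normalised counts were 604, 585, 1199 and 1180 in naive and 753, 779, 563 and 1425 in DMM libraries. The values split within each group rather than between groups, with naive 1 and naive 2 near the lower DMM mice and naive 3 and naive 4 nearer DMM 4. The ratio was 0.987 with a 95% interval of 0.572 to 1.70 (log2 fold change -0.02, SE 0.40, adjusted p = 0.98), and its sign turned under TMM factors and under scaling to the total count. At this spread the interval reaches from a fall to 0.572 of the naive level to a 1.70-fold rise. A difference in that range is not excluded.

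Dkk2, a relative that can block or weakly activate the pathway depending on Kremen, had low counts. It lies at chr3:132085292-132180304 on the plus strand (ENSMUSG00000028031). Normalised counts were 35.2, 41.2, 50.3 and 77.1 in naive and 50.6, 41.9, 83.1 and 57.8 in DMM libraries. The ranges overlapped almost fully. The ratio was 1.15 with a 95% interval of 0.747 to 1.77 (log2 fold change 0.20, SE 0.32, adjusted p = 0.73).

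**Figure D2:**
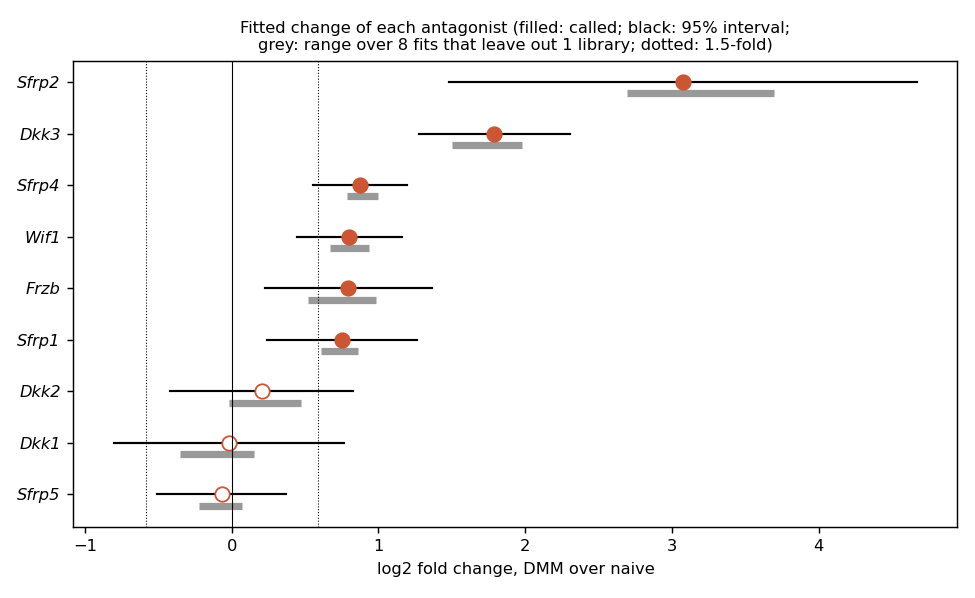
Fitted log2 fold change of each antagonist, DMM over naive, with its 95% interval in black and the range over 8 fits that each left out a library in grey. Filled points were called, and dotted lines mark 1.5-fold. Sfrp2 (3.08) and Dkk3 (1.79) lie far to the right, Sfrp4, Wif1, Frzb and Sfrp1 cluster between 0.75 and 0.87, and the intervals of Dkk2, Dkk1 and Sfrp5 include 0.

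Between 4 and 6 antagonists were called when a library was left out, with 4 without naive 2, naive 3 or DMM 3. Sfrp2, Sfrp4, Dkk3 and Wif1 were called in all 8 of these fits, Sfrp1 in 4 and Frzb in 3.

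Levels of different genes were set side by side as counts per kilobase of the longest annotated transcript per 1000000 counts, a scale that divides by the library total. On this scale the 9 antagonists summed to 89.1, 65.5, 127 and 126 in the naive mice and 169, 177, 202 and 224 in the DMM mice. The sum was higher in every DMM mouse than in any naive mouse, 102 ± 29.8 against 193 ± 25.0 (SD, n = 4). When libraries were scaled to the total count, the median log2 fold change over genes averaging 10 or more normalised counts shifted from -0.01 to 0.14. In naive cartilage the order of mean levels was Wif1, Dkk1, Sfrp4, Frzb, Dkk3, Sfrp5, Sfrp2, Dkk2 and Sfrp1, and Dkk1 and Sfrp4 were the only neighbours whose ranges did not overlap. In DMM cartilage it was Wif1, Dkk1, Dkk3, Sfrp4, Sfrp2, Frzb, Sfrp5, Sfrp1 and Dkk2. There, the ranges of Wif1 and Dkk1, of Frzb and Sfrp5, and of Sfrp5 and Sfrp1 were separate, while those of the other neighbours overlapped.

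As a share of the summed level, Wif1 was 50.4% ± 2.77 in the naive and 51.0% ± 4.05 in the DMM group (SD, n = 4). Dkk1 made up 23.9% ± 3.75 in naive and 13.9% ± 4.73 in DMM libraries. Dkk3 made up 5.28% ± 1.38 and 10.5% ± 3.74, and Sfrp2 1.44% ± 1.0 and 7.5% ± 4.13. The Sfrp2 share ranged from 0.173% to 2.57% among naive and from 3.42% to 11.8% among DMM mice. Sfrp4 made up 8.45% ± 1.11 in naive and 8.84% ± 1.2 in DMM libraries, and Sfrp5 made up 3.35% ± 1.16 and 1.79% ± 0.508. These shares are descriptions and were not tested.

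**Figure D3:**
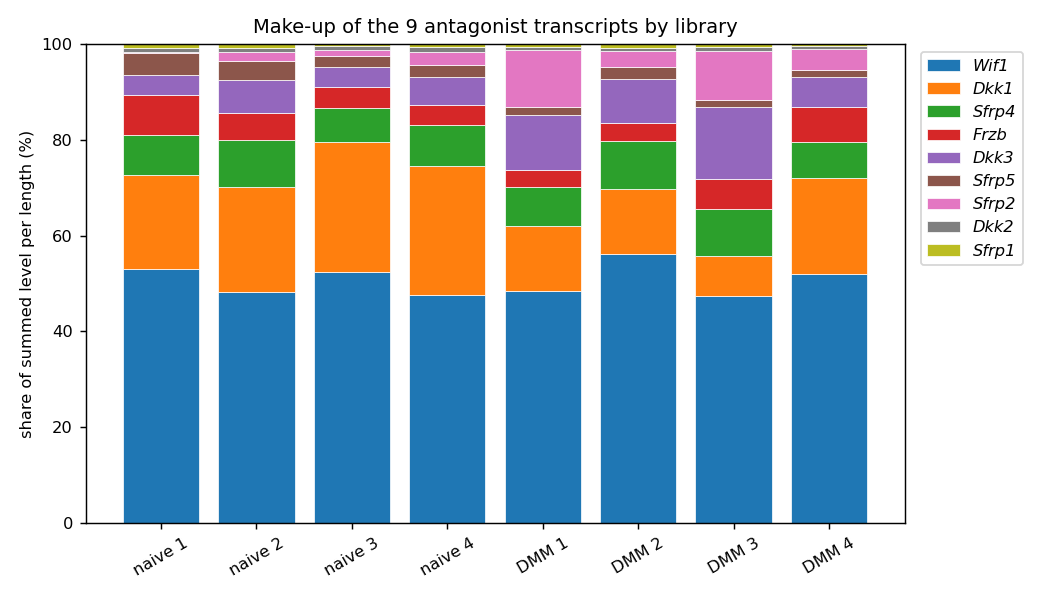
Share of each antagonist in the summed level per length of the 9 genes, as stacked bars that add to 100% in each of the 8 libraries. Wif1 is close to 50% of every bar, and the bands of Sfrp2 and Dkk3 are widest in DMM 1 and DMM 3, where Sfrp2 reaches 11.8% and 10.2% and Dkk3 11.4% and 15.1%.

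The spread between mice of a group was wide for several antagonists. Among 13220 genes with a mean of 50 or more normalised counts, the gene-wise dispersion of Sfrp2 was at percentile 99.5, that of Dkk1 at 96.7, Frzb at 95.5, Dkk3 at 93.9 and Dkk2 at 92.3. Wif1, Sfrp1, Sfrp4 and Sfrp5 were between 69.3 and 80.5. The mice that were high or low differed from gene to gene. Dkk1 was lowest in DMM 3 and highest in DMM 4 among the DMM mice, whereas Sfrp2 and Dkk3 were highest in DMM 3 and Frzb was high in both.

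Summed markers of other cell types also differed between the libraries. The summed normalised count of 12 synovial fibroblast markers was 12255, 19201, 25191 and 32929 in naive and 92688, 55199, 116632 and 55263 in DMM libraries. Of these 12 markers 6 were called higher, none lower and 6 not called, and none was at 0 in any library. Over all genes tested, 7.38% were called higher and 5.63% lower. Those not called were Pi16 (log2 fold change -0.35), Htra4 (-0.39), Tspan15 (-0.49), Dpp4 (0.13), Cd34 (0.28) and Clec3b (0.98). For Pi16 every DMM library was under every naive library, an arrangement that was not counted over all genes. Col3a1 made up most of the sum, so it mainly follows that gene. They took 0.151% ± 0.0638 (SD, n = 4) of naive and 0.595% ± 0.217 of DMM counts (exact permutation p = 0.0286, adjusted 0.0629). Sfrp2 ranked the 8 libraries in the same order as this sum. Of the 99 pairs of an antagonist with a marker list, this was the only such pair, and it was noticed after the values were seen. The match rests on nearly equal sums in DMM 2 (55199) and DMM 4 (55263). Dkk3 departed from the order of the sum only by swapping these libraries. Within a single group of 4 libraries, 4 of the 99 pairs shared their order in naive and 5 in DMM mice, and no relation is read from those.

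The summed chondrocyte markers were 102084, 102706, 151943 and 174189 in DMM 1 to DMM 4 and between 40992 and 80836 in naive libraries. Col2a1, the main cartilage collagen gene, was at 43988, 40178, 73292 and 97825 normalised counts in DMM 1 to DMM 4. Col2a1 was the largest single part of the sum in every library. Of the 13 chondrocyte markers with an adjusted p, 6 were called higher and none lower. Those not called were Col9a1 (log2 fold change -0.36), Matn3 (-0.29), Col9a3 (0.22), Cnmd (0.46), Col9a2 (0.57), Snorc (0.57) and Hapln1 (0.79). Matn1 had low counts, no adjusted p and a log2 fold change of -2.52. Beside this count and that of the tendon list, 7.38% of all genes tested were called higher and 5.63% lower. Tendon and ligament markers, a list that shares Col1a1 with the osteoblast and osteocyte list and in which it also makes up most of the sum, took 0.932% ± 0.196 (SD, n = 4) of naive and 2.44% ± 0.356 of DMM counts (exact permutation p = 0.0286, adjusted 0.0629), with 4 of 7 called higher. The lists of B cells, osteoclasts, macrophages, endothelium and skeletal muscle had exact permutation p of 0.0857 or more. The part of these cell types in the values of the antagonists was not tested.

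**Figure D4:**
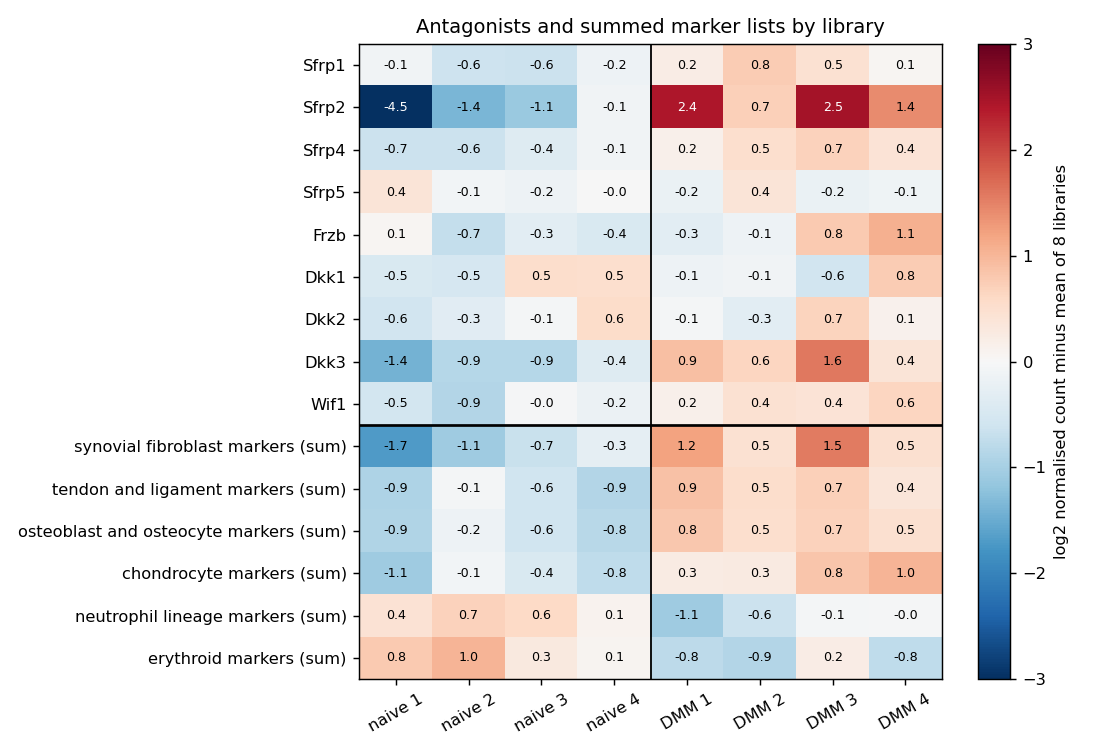
Log2 normalised count of each antagonist and of 6 summed marker lists in the 8 libraries, each minus its own mean, with colours that end at -3 and 3 and values printed in the cells. Rows of Sfrp2, Dkk3 and the fibroblast markers run from lowest in naive 1 (-4.5, -1.4 and -1.7) to highest in DMM 3 (2.5, 1.6 and 1.5).

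The genes whose profiles were nearest to each called antagonist were found as the smallest root mean square difference between centred log2 profiles over the 8 libraries, among 13225 genes with a mean of 50 or more. The nearest to Sfrp2 was Tnn (0.463), which encodes the matrix protein tenascin-N, followed by Megf6 (0.898) and Gm38182 (0.922). Tnn itself rose by a log2 fold change of 2.85. The nearest to Dkk3 were Angptl2 (0.143), a secreted angiopoietin-like protein, the transcription factor Osr2 (0.153) and Lum (0.166), the matrix proteoglycan lumican, which is also on the fibroblast list.

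The nearest genes to Sfrp4 were the kinase Stk38l (0.0652), the Wnt5a receptor Ror2 (0.0725) and Ank (0.0973), which encodes a protein of pyrophosphate export. Those to Wif1 were D630045J12Rik (0.0554), Plekhh2 (0.0985) and Fam160a1 (0.102). Those to Sfrp1 were Tmem98 (0.108), Palm2 (0.115) and the elastic fibre gene Fbln5 (0.148), and those to Frzb were Mfge8 (0.230), Bhlhe41 (0.266) and Susd5 (0.269). Within a fixed distance, the same for each antagonist, lay 6400 genes for Sfrp1, 5234 for Sfrp4, 4910 for Wif1 and 1142 for Frzb. For Dkk3 there were 245 and for Sfrp2 only 1. The genes named for the first 4 are thus not particular to them. All of these profiles share the same 8 libraries and the same group difference. The distances, which grow with the size and spread of a gene's change, are descriptions.

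The other genes of the pathway were counted over lists of ligands, receptors, inhibitors and targets. Beside these counts, 7.38% of all 18707 genes tested were called higher and 5.63% lower. Of 19 Wnt ligands, 9 had an adjusted p, and of these 4 were higher, none lower and 5 not called (median log2 fold change 1.03). Wnt5a and Wnt5b, which mostly act without beta-catenin, rose by 1.03 (SE 0.22) and 1.06 (SE 0.19). Wnt16, a ligand expressed in cartilage and bone, rose from 33.4, 27.9, 88.8 and 79.4 to 120, 92.4, 151 and 169 normalised counts (log2 fold change 1.21, adjusted p = 0.0053). Wnt9a rose by 1.24 (adjusted p = 0.033) with groups that overlapped.

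Of the 16 receptors and co-receptors, 12 were higher, none lower and 4 not called, with a median log2 fold change of 0.80 and a range of 0.41 to 2.20. In 15 of the 16 every DMM library was above every naive library, as in 11.5% of all genes tested. The kinase-like receptors Ptk7 (1.16) and Ryk (0.88) and the Frizzled genes Fzd9 (0.87), Fzd7 (0.66), Fzd8 (0.73) and Fzd2 (1.2) had the smallest adjusted p. Fzd10, named after its values were seen, had the largest log2 fold change (2.20) at low counts, between 2.64 and 13.9 in naive and 17.1 and 64.5 in DMM libraries.

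Of 6 genes for receptors that Dickkopf proteins or sclerostin bind, 5 had an adjusted p and 2 were called, Lrp6 (log2 fold change 0.59, adjusted p = 0.00011) and Kremen1 (0.85, adjusted p = 0.00012). Lrp5 had normalised counts of 1199, 1300, 1309 and 1185 in naive and 1979, 2013, 1515 and 1496 in DMM libraries, which did not overlap. Its log2 fold change of 0.49 (adjusted p = 0.0023) was under the 1.5-fold threshold. The count of 2 fell to 1 without naive 1, naive 2, naive 3 or DMM 3.

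Other inhibitors of the pathway moved both ways. Of 17 genes, 14 had an adjusted p, of which 5 were higher, 2 lower and 7 not called (median log2 fold change 0.44). Notum, a secreted enzyme that removes the lipid from Wnt ligands, rose from 19.3, 25.3, 30.0 and 18.1 to 90.4, 88.1, 80.7 and 88.4 normalised counts (log2 fold change 1.91, SE 0.26, adjusted p = 3.9e-11). Nkd2, an intracellular inhibitor, rose by 1.29, the membrane protease gene Trabd2b by 1.02 and Shisa2 by 0.96. Sost, which encodes the osteocyte protein sclerostin, had 1170, 1039, 2097 and 2890 normalised counts in naive and 3229, 3918, 2750 and 5137 in DMM libraries. Its log2 fold change was 1.06 (adjusted p = 0.0399), and DMM 3 was under naive 4. The secreted antagonist gene Draxin fell by 0.86 (adjusted p = 0.027), and Rnf43, a ubiquitin ligase that removes Frizzled receptors, also fell by 0.86 (adjusted p = 0.014).

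Of 7 R-spondins and their receptors, which raise Wnt signalling at the membrane, only Rspo3 was called (log2 fold change 0.82, adjusted p = 0.0355), and its groups overlapped. The count of 1 was 0 without naive 1, naive 2, naive 3, DMM 1 or DMM 2 and 2 without naive 4. A count of 1 in 7 is near the share over all genes tested (7.38% called higher, 5.63% lower). No result about this list is read from it.

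Of 18 genes used as readouts of beta-catenin activity, 16 had an adjusted p, of which 8 were higher, 1 lower and 7 not called (median log2 fold change 0.58). Ccn4 had 685, 717, 723 and 729 normalised counts in naive and 1450, 1492, 1400 and 1512 in DMM libraries, with a log2 fold change of 1.04 (SE 0.08, adjusted p = 3.6e-31). The groups were far apart compared with their spread. Lef1 (0.99), Bambi (0.86) and Tcf7 (0.74) rose without overlap, and Axin2, a feedback inhibitor induced by beta-catenin, rose by 0.61 (adjusted p = 0.025) with naive 4 above DMM 4. The lower gene was Rnf43, and Notum and Nkd2, listed above as inhibitors, are also among the higher readouts.

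**Figure D5:**
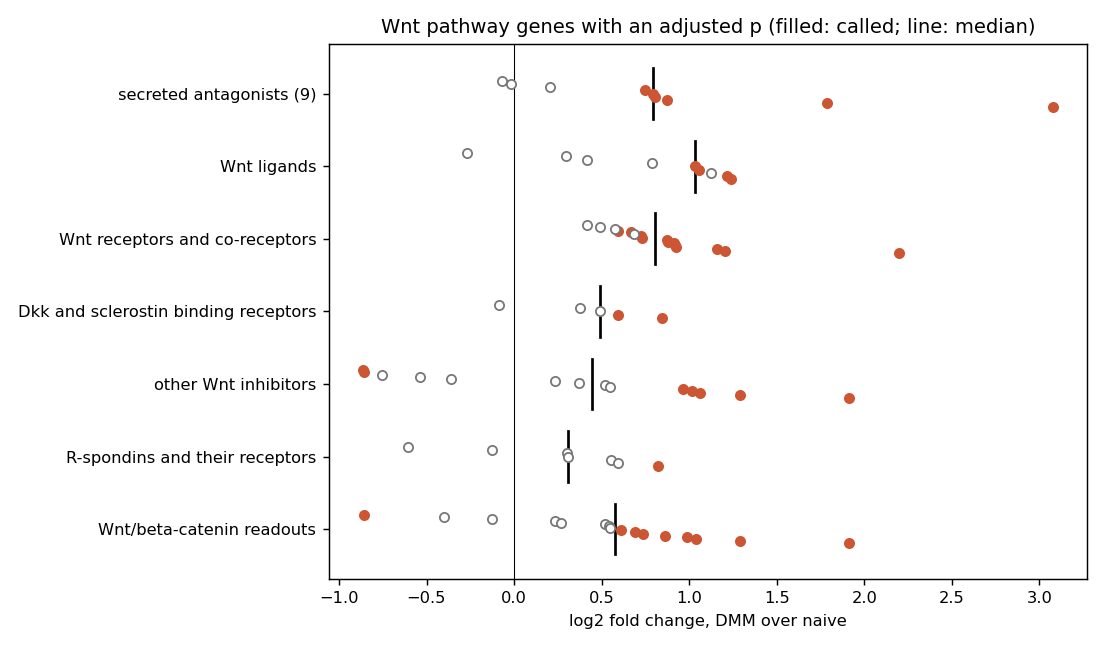
Log2 fold change, DMM over naive, of the genes with an adjusted p in each list of the Wnt pathway. Filled points were called, open points were not, vertical lines are list medians, and a gene can be in more than 1 list. The median is 0.79 for the antagonists, 1.03 for ligands, 0.80 for receptors and 0.31 for R-spondins and their receptors.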

How the data were processed

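RNA from medial cartilage caps of 8 mice was sequenced, 1 library per mouse. The authors trimmed reads with Trimmomatic, quantified transcripts with Kallisto and summed them to genes with tximport, and deposited estimated counts, of which 39.0% were not whole (tolerance 1e-06). No length offsets were used here. The labels name the human build GRCh38, while the study's methods name mouse GRCm38. The library kit also differs between the labels (NEB) and the methods (Takara), which was not resolved. Identifiers were given symbols for 96.8% of 50462 genes. Coordinates came from a GENCODE annotation of GRCm38, and promoter sequences from RefSeq (GRCm38.p6).

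Counts were rounded and fitted over 35010 genes in 8 libraries with DESeq2 version 1.42.0 (R version 4.3.3; median-of-ratios size factors, default filters, Wald test, no shrinkage), with naive and DMM as groups taken from the labels. Normalised counts are counts divided by these size factors. Every p-value from this model was adjusted over the genes tested. Shares of counts on marker lists were compared by a two-sided exact permutation test over 70 assignments. edgeR version 4.0.16, limma-voom (limma version 3.58.1), other scalings, filters and thresholds, a replicate block and leaving out each library were tried as alternatives. The steps were tested on simulated counts in which 200 genes were changed 2-fold. DESeq2 recovered 152 of them and also called 23 unchanged genes. edgeR recovered 136 and called 6 unchanged genes, and limma-voom recovered 128 and called 2. Similarity of profiles used log2(normalised count + 1). The sources do not say whether mice of a group came from separate litters. The p-values set the difference between groups against the spread between these libraries, which are treated as independent.

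The text names all 9 antagonists, of each pathway list the called genes up to the 6 with the smallest adjusted p, Lrp5, Lrp6, Kremen1, Sost, Axin2 and Lef1, and the 3 genes nearest to each called antagonist. The antagonists and all lists were chosen with earlier results of these data known. Sost and Col1a1 stand in more than 1 list, as do Lrp5, Lrp6, Nkd1, Nkd2, Notum, Znrf3, Rnf43, Apcdd1 and Lgr5.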

Additional observations from a re-analysis of the deposited data

Results flagged for a closer look

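In groups of 4, a library was set apart when its gap to the nearest other library was a larger part of the group's range than Dixon's 95% limit. This held in 7 of 94 groups, where chance gives about 4.7. Sfrp5 in DMM 2 had a normalised count of 113.9, against 75.7 to 80.3 in the other DMM mice. Lrp6 in naive 4 had 1729 normalised counts, against 1523 to 1541. Ptk7 in naive 1 had 154.8, against 203 to 208, and Fzd9 in DMM 1 had 164.2, against 214 to 224. The share of counts on erythroid markers in DMM 3 was 1.35%, against 0.641% to 0.707% in the other DMM mice. The share on skeletal muscle markers was 0.00352% in naive 3, against 0.000803% to 0.00122%, and 0.0105% in DMM 1, against 0.00109% to 0.00151%. Lrp6, Ptk7 and Fzd9 were called by the Wald test and the 1.5-fold threshold, and their groups did not overlap. The change of Lrp6 was close to that threshold (1.51-fold). Sfrp5 was not called.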

How the results depend on the processing

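The 9 settings other than leaving out a library were edgeR, limma-voom, size factors from TMM or from the total count, no independent filtering, a minimum of 10 counts in at least 4 libraries, no fold threshold, a 1.5-fold null and the replicate block. Dkk3 was called in all 9 (log2 fold change 1.77 to 1.94), Sfrp2, Sfrp4 and Wif1 in 8, Sfrp1 in 7 and Frzb in 4. The setting with no fold threshold keeps the main fit, so genes called in the main fit pass it by construction. Against a 1.5-fold null, 88 genes in all (74 higher, 14 lower), 1 antagonist, 0 ligands, 0 receptors, 0 Dickkopf and sclerostin binding receptors, 1 other inhibitor, 0 R-spondin genes and 2 readouts passed, fewer by the test's construction. The unchanged estimates then had adjusted p of 1 for Sfrp1 (0.75), Sfrp4 (0.87), Frzb (0.79) and Wif1 (0.80), and of 0.288 for Sfrp2 (3.08). With no fold threshold, 3975 genes, 4 Dickkopf and sclerostin binding receptors and 2 R-spondin genes passed. Frzb lost its call with edgeR (0.81), limma-voom (0.70) and no independent filtering (0.79, adjusted p = 0.063), and the R-spondin count became 0 under each of these. Under the total count, 2036 genes were higher and 486 lower, against 1380 and 1054, the R-spondin count was 2, and Sfrp5 (0.079) and Dkk1 (0.12) changed sign, as did Dkk1 under TMM factors (0.012).

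Same-numbered naive and DMM mice did not deviate together (correlations of 0.05, 0.058, -0.12 and 0.12), so no pairing by number was seen. These few values cannot exclude a shared litter or processing day of same-numbered mice. With the replicate block, 2079 genes and 4 antagonists were called, Sfrp1 (0.75, adjusted p = 0.118) and Frzb (0.71, adjusted p = 0.0676) were not, and the counts of Dickkopf and sclerostin binding receptors and of R-spondin genes were 1 and 0.

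Leaving out a library gave 1851 to 2855 genes called, 4 to 6 antagonists, 3 to 5 ligands, 10 to 13 receptors, 1 to 2 Dickkopf and sclerostin binding receptors, 5 to 7 other inhibitors, 0 to 2 R-spondin genes and 7 to 11 readouts. Log2 fold changes ranged from 0.61 to 0.86 for Sfrp1, 2.70 to 3.70 for Sfrp2, 0.79 to 1.0 for Sfrp4, -0.22 to 0.07 for Sfrp5, 0.52 to 0.98 for Frzb, -0.35 to 0.15 for Dkk1, -0.02 to 0.47 for Dkk2, 1.5 to 1.98 for Dkk3 and 0.67 to 0.93 for Wif1. The sign turned for Sfrp5 without naive 1 (0.070), for Dkk2 without DMM 3 (-0.016) and for Dkk1 without naive 3 (0.15), naive 4 (0.14), DMM 1 (0.05), DMM 2 (0.03) or DMM 3 (0.15), none of which was called. What causes these changes was not tested.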
